A study of Mus musculus with 24 samples.

Results

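Skeletal muscle and heart of sham-operated mice were compared by RNA sequencing, to show how the 2 striated muscles of the body differ before any tumour or drug is involved. The comparison takes the 8 sham libraries of the 24 in the series, 4 of skeletal muscle and 4 of heart, chosen by their labels. All 8 came from male C57BL/6J mice that had sham surgery, are labelled as untreated and carry no transgene or deletion in the labels. Mice of the other groups were implanted with pancreatic cancer cells, with or without gemcitabine and nab-paclitaxel, and do not enter here. The sham labels also name the cancer cell line KPC32908, which the series design gives to the implanted mice only. Neither the age of the mice nor the identity of the skeletal muscle is given in the sources used here. The number in each title was read as the animal. Muscle came from animals 181, 146, 156 and 176 and heart from animals 181, 166, 146 and 176, so 3 of the 5 animals gave both tissues, and values of single libraries are printed in these orders throughout.

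Both tissues contract through sarcomeres, in which thick filaments of myosin slide along thin filaments of actin, tropomyosin and troponin. Most of these proteins belong to small gene families with separate skeletal and cardiac members. A skeletal fibre is a fused cell that fires when its motor nerve does, whereas cardiomyocytes are separate cells that pass the beat to each other through intercalated discs. Fast skeletal fibres draw on glycogen and glycolysis for short bursts, and the heart oxidises mainly fatty acids. Skeletal muscle forms under the MyoD family of transcription factors, and the heart under Gata4, Nkx2-5 and T-box factors.

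The muscle libraries held 19211505 to 26209388 counts each and the heart libraries 14490290 to 19522088. Rn45s, a ribosomal RNA gene, was the top gene of every library but the muscle of animal 181. It took 9.70%, 10.5% and 6.36% of counts in the muscles of 146, 156 and 176. In the hearts it took 9.81%, 15.5%, 6.23% and 11.3%. These counts remain in the library totals. The first principal component of the 8 libraries took 90.4% of the variance and separated the tissues. The labelled tissues matched their markers. All 15 skeletal fibre markers were higher in muscle, where they summed to 228220 to 297670 CPM (counts scaled to library size, corrected by the trimmed mean of M values, TMM), against 1347 to 2165 CPM in heart. All 15 cardiomyocyte markers were lower in muscle, at 927 to 1511 CPM in sum, against 53110 to 71173 CPM in heart, and 5 of them, Mybpc3, Gata4, Tbx20, Nkx2-5 and Nppa, had 0 counts in every muscle library. The 4 hearts were not alike. The hearts of animals 166 and 176 held atrial transcripts that those of animals 181 and 146 nearly lacked. Myl7, the atrial regulatory light chain, stood at 0.494, 345, 0.816 and 354 CPM in the 4 hearts, and Nppa, the atrial natriuretic peptide, at 86.6, 1348, 117 and 1570 CPM. Bmp10, a growth factor of the atrial wall, and Sln, which encodes the calcium pump inhibitor sarcolipin, followed the same pattern, at 0, 91.4, 0.109 and 44.0 CPM and at 0, 87.7, 0.109 and 82.4 CPM. Both were chosen after their values were seen, as were Dkk3 and Msln in the plot of these transcripts and Msc, Myod1, Nkx2-5, Tbx4, Tpm1 and Tpm2 below. Of 11 atrial markers tested, 3 were higher and 6 lower in muscle (list median −2.14), against 7 higher and 4 lower with the hearts of 181 and 146 alone (median 0.90). Upk3b, a marker of the epicardium, was at 13.5, 87.9, 16.1 and 29.1 CPM. The second principal component, with 3.28% of the variance, set the hearts of 166 and 176 apart from those of 181 and 146. What part the dissection of the hearts plays in this was not tested. Among the muscles, that of animal 156 had the most slow-fibre and tendon transcripts, with values given below.

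**Figure D1:**
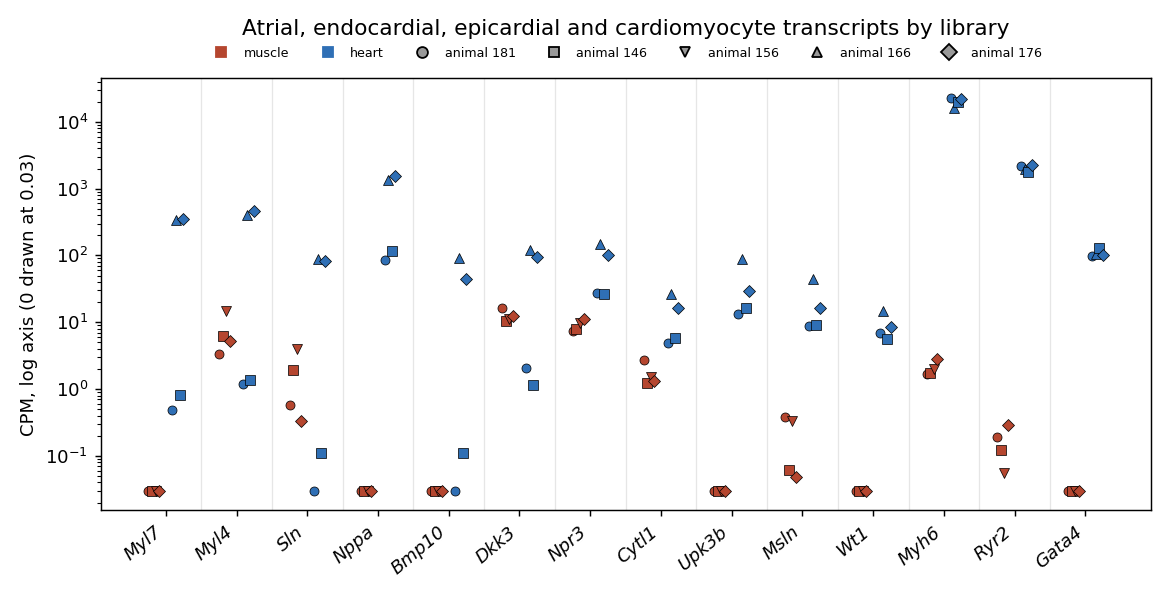
Level of 14 genes in each of the 8 libraries (CPM on a log axis, 0 drawn at 0.03), muscle to the left of heart, with the symbol shape giving the animal. The hearts of animals 166 and 176 stand far above the other hearts for Myl7, Myl4, Sln, Nppa, Bmp10 and Dkk3, while all 4 hearts lie together for Myh6, Ryr2 and Gata4.

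Most genes differed between the tissues. Of 13328 genes tested, 4654 were higher in muscle than in heart (34.9%) and 4851 were lower (36.4%) by the quasi-likelihood F test of edgeR at a Benjamini-Hochberg adjusted p of 0.05. At least 4-fold differences were found for 740 genes higher in muscle (5.55%) and for 1095 lower (8.22%). Counts of gene lists below are to be read against these percentages. The 4 muscle libraries lay entirely above the 4 hearts for 4409 genes and entirely below them for 4384. Across all tested genes the median of muscle over heart was −0.03 on the log2 scale. It moved to −0.18 with upper-quartile scaling and to −0.66 with library totals alone, where the split of calls was 3877 higher and 5673 lower in the first case and 2022 higher and 8603 lower in the second. Small positive fold changes therefore depend on the scaling, and lists whose median changes sign are named as such. The tissues were deposited as separate tables, so tissue and any difference in handling or counting between the tables cannot be told apart, and in bulk tissue neither can fewer cells of a type and less RNA per cell.

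The largest fold changes by the naming rule were in the contractile proteins, the calcium store and a few enzymes and transcription factors. Ampd1, the muscle AMP deaminase of the purine nucleotide cycle (chromosome 3, 103074014 to 103099720, GRCm38), had 1594, 1673, 1462 and 1748 CPM in muscle, against 0.11, 0, 0.0544 and 0.0416 CPM in heart (14.85 on the log2 scale, SE 0.23, adjusted p = 1.04e-11 by edgeR). Myf6, a myogenic transcription factor of mature fibres (chromosome 10, 107492853 to 107494737), had 116, 122, 97.5 and 109 CPM in muscle and 0 counts in the 4 hearts, which makes it at least 3046-fold higher against a floor of 3 counts over the 4 libraries. At the other end, Mybpc3, the cardiac myosin binding protein C (chromosome 2, 91118144 to 91136516), had 0 counts in the 4 muscles, against 3011, 2363, 3570 and 3405 CPM in heart, and was at least 72141-fold lower in muscle. Dsp, which encodes desmoplakin of the desmosome (chromosome 13, 38151294 to 38198577), had 3 counts over the 4 muscles, against 1516, 1449, 1498 and 1619 CPM in heart, a heart-to-muscle ratio of 35733 (95% Clopper-Pearson interval of the counts 12227 to 173270, counting error only). The naming rule admits only genes that do not overlap between the tissues, so the lack of overlap in these 4 is no result. Among the 12 highest genes were also Myh4, Tnnc2, Myh2, Myh1, Atp2a1, Myoz3, Tnnt3, Pvalb, Mybpc1 and Ryr1, and among the 12 lowest Nppa, Myl7, Nppb, Tnni3, Tbx20, Tnni3k, Gata4, Kcnj5, Ryr2 and Myh6. The place of Myl7 rests on the hearts of 166 and 176, since the hearts of 181 and 146 alone average 0.656 CPM, under the 20 CPM of the naming rule, and are at least 15.4-fold above muscle. Tnni3k, a kinase named for its binding to cardiac troponin I, and Kcnj5, a subunit of the atrial acetylcholine-activated potassium channel, had 0 counts in all muscles, against 107 to 123 CPM and 78.6 to 130 CPM in heart.

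Of 32 pairs set up as a skeletal and a cardiac family member, 28 had the skeletal member higher and the cardiac member lower in muscle. Of the 64 members 63 were tested, with 31 skeletal members higher and 29 cardiac members lower in muscle. By the deposited FPKM, which are per length and so let genes be compared within a library, the skeletal member made up over 90% of its pair in muscle for 25 pairs and under 10% in heart for 21 pairs, and both held for 18. The member set up as cardiac was not always the main one in heart. There Pgam2, Slc25a4, Pygm and Rpl3l, set up as skeletal, averaged 97.8%, 95.8%, 65.4% and 60.3% of their pairs. Acta1, skeletal alpha-actin, had 35910, 29643, 29093 and 35208 CPM in muscle, against 284, 164, 324 and 256 CPM in heart (6.98 on the log2 scale, SE 0.27, adjusted p = 2.81e-09 by edgeR). Its partner Actc1, cardiac alpha-actin, had 462, 286, 501 and 286 CPM in muscle, against 10010, 6233, 10269 and 8682 CPM in heart (−4.52 on the log2 scale, SE 0.26, adjusted p = 6.01e-08 by edgeR). Neither actin overlapped between the tissues, and each tissue still held some of the other's actin. Acta1 took 98.7 ± 0.443% of the pair's FPKM in muscle and 2.5 ± 0.180% in heart (SD, n = 4 each). Sequences of the actins and of the myosins are alike enough that the sharing of reads between them is uncertain.

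**Figure D2:**
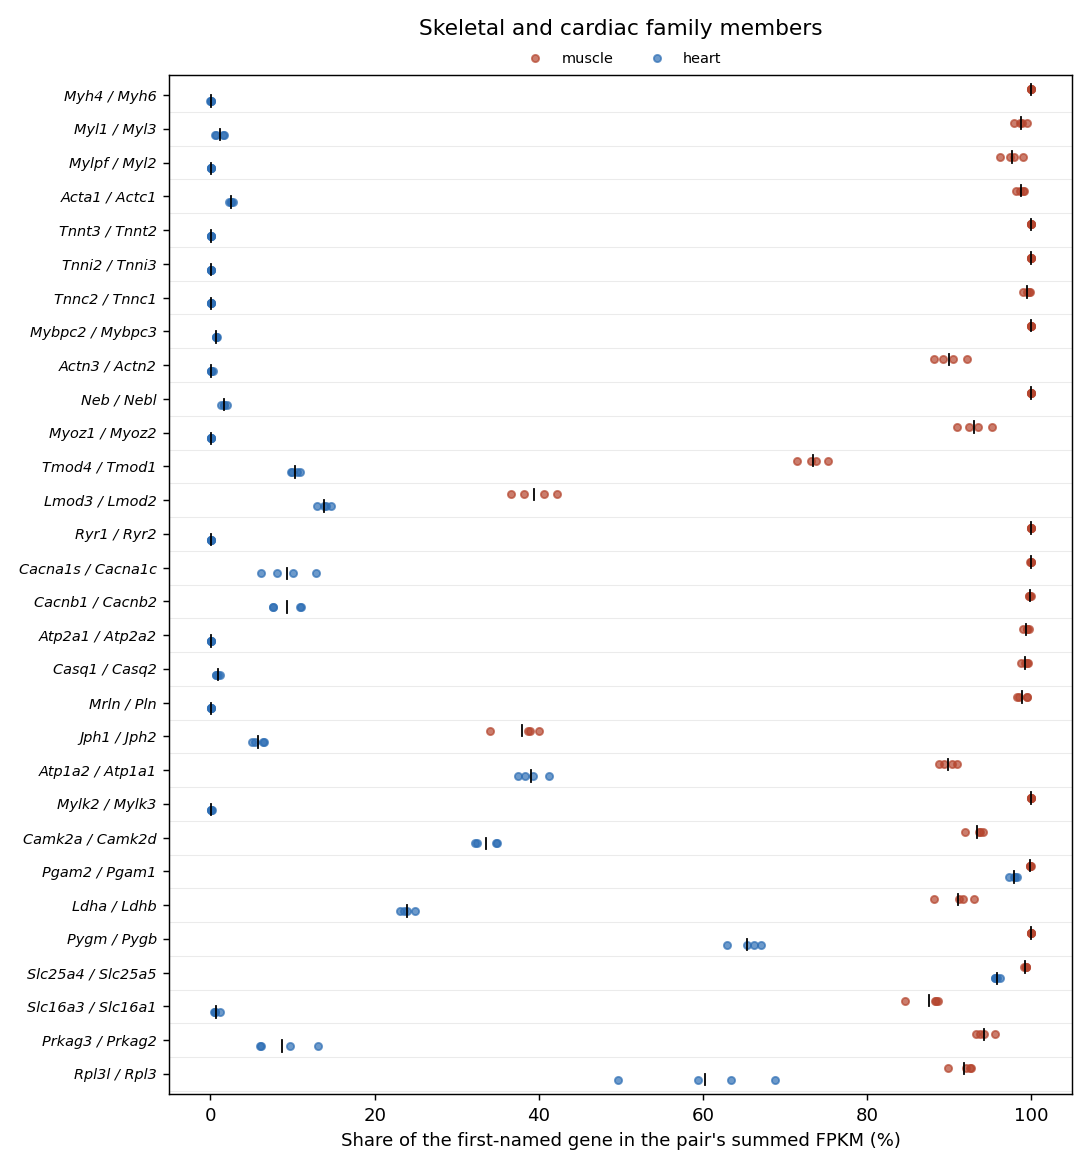
Share of the first-named, skeletal member in the summed FPKM of each of 30 pairs (%), muscle libraries above heart libraries, with a black bar at the mean of 4 libraries. Most pairs sit at opposite ends, such as Acta1 with 98.7% in muscle and 2.5% in heart, while Pgam2, Pygm and Slc25a4 lead their pair in every library and Lmod3 and Jph1 in neither.

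The promoters of 4 of the genes that separate the tissues are shown, since the same short motifs stand in front of genes that differ in opposite directions. They cover the 250 bases before the RefSeq start in GRCm38.p6 and read 5′ to 3′ on the strand of the gene, with capitals for a CArG box, which binds serum response factor, a MEF2 box, which binds MEF2 factors, or a TATA box (the letters TATAAA). The window of Acta1 lies at chr8:123894776-123895025 on the minus strand, that of Actc1 at chr2:114052876-114053125 on the minus strand, that of Myh4 at chr11:67237562-67237811 on the plus strand and that of Mybpc3 at chr2:91117894-91118143 on the plus strand.
Acta1: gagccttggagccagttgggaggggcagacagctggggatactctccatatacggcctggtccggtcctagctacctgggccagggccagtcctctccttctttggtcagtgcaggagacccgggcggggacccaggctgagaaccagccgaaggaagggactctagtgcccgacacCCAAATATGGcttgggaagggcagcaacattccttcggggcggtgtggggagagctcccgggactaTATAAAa
Actc1: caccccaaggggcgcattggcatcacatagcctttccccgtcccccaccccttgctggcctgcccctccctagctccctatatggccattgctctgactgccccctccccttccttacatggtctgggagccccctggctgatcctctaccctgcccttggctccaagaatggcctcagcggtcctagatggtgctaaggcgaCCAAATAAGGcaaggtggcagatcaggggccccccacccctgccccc
Myh4: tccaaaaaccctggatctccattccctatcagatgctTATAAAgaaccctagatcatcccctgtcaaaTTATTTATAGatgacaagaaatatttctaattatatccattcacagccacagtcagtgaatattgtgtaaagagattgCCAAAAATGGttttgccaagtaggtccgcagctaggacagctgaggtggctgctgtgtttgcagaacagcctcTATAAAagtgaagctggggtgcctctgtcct
Mybpc3: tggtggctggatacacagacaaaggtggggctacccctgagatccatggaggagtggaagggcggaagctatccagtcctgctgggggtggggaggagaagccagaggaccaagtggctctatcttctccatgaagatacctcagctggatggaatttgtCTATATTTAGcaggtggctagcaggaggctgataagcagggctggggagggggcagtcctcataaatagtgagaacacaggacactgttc
Both actins, which differ in opposite directions, held a CArG box, which begins 73 bases before the start in Acta1 and 47 bases before it in Actc1. Myh4, higher in muscle, held a CArG box 104 bases and a MEF2 box 182 bases before the start, with a reverse-strand TATA box inside the MEF2 box. Mybpc3, lower in muscle, held a MEF2 box 90 bases before the start. On both strands, a CArG box was found in 1.47%, a MEF2 box in 2.92% and a TATA box in 12.4% of 32851 RefSeq promoters, over the same 250 bases before the start. Of 50 members of the pairs with a promoter, 5 held a CArG box, 6 a MEF2 box and 5 a TATA box. Counted by gene in the same way, the shares over all 27025 genes with a promoter were 1.62%, 3.42% and 14.3%. The pair members were thus not above all genes for the TATA box. These matches are of letters in a window and say nothing of binding.

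Myosin heavy chain, the motor of the thick filament, was almost wholly Myh4 in muscle and Myh6 in heart. Myh4, the chain of the fastest fibres, had 87398, 67630, 58744 and 75751 CPM in muscle, against 3.74, 0.906, 1.79 and 3.16 CPM in heart (14.88 on the log2 scale, SE 0.51, adjusted p = 9.99e-10 by edgeR). Myh6, the chain of the adult mouse ventricle, had 1.67, 1.74, 2.02 and 2.78 CPM in muscle, against 22669, 16173, 20114 and 21790 CPM in heart (−13.24 on the log2 scale, SE 0.28, adjusted p = 3.19e-11 by edgeR). Of the FPKM of the 9 genes, Myh4 took 88.3 ± 2.87% in muscle and 0.0119% in heart, and Myh6 took 0.00265% in muscle and 99.4 ± 0.1% in heart. In muscle the rest was Myh1 at 7.45 ± 1.99% and Myh2 at 3.85 ± 0.763%, the chains of the other fast fibre types. Myh7, the slow chain that skeletal muscle and heart share, was a small part of both tissues, at 0.382 ± 0.276% in muscle and 0.298 ± 0.0914% in heart. In CPM Myh7 was higher in muscle, at 128, 201, 534 and 310 CPM, against 52.4, 70.1, 55.3 and 55.3 CPM in heart (2.33 on the log2 scale, SE 0.36, adjusted p = 0.000145 by edgeR). The muscle of animal 156 was the highest for Myh7, and also for the embryonic Myh3 at 15.6 CPM and the perinatal Myh8 at 19.6 CPM, where the other muscles had 2.25 to 7.01 CPM and 2.49 to 4.47 CPM. In all, 7 of the 9 genes were higher in muscle (list median 7.42, or 7.03 with genes of few counts at their bound) and 2, Myh6 and Myh7b, were lower.

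**Figure D3:**
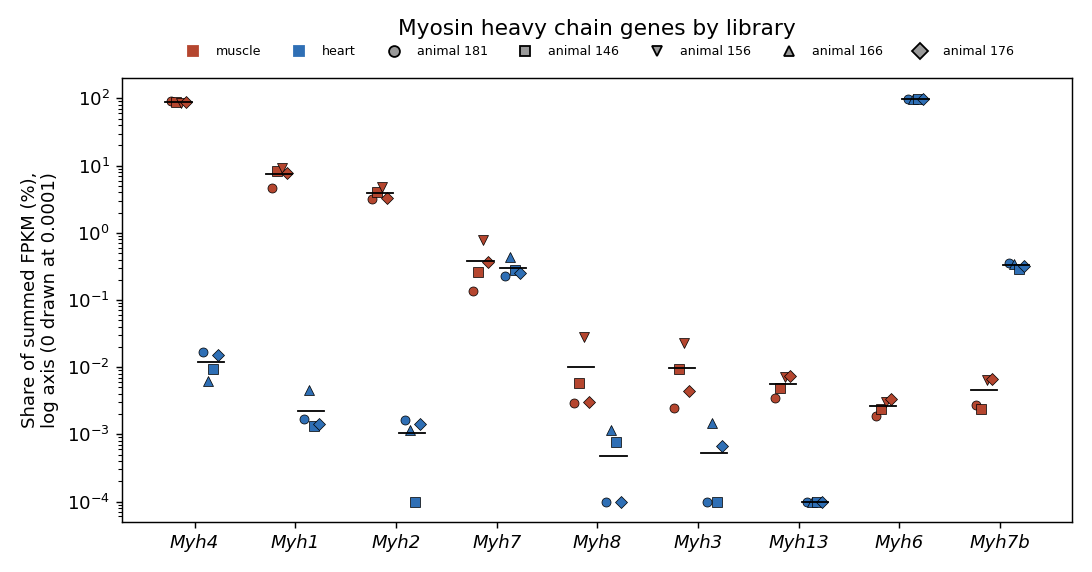
Share of each sarcomeric myosin heavy chain gene in the summed FPKM of the 9 genes (%, log axis, 0 drawn at 0.0001), muscle to the left of heart, symbol shape for the animal and a bar at the mean of 4 libraries. Myh4 dominates muscle at 88.3% and Myh6 dominates heart at 99.4%, and Myh7 lies under 1% in every library.

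The thin filament split in the same way. Of 23 thin filament genes, 15 were higher and 7 lower in muscle, with a list median of 1.53. Fast troponin T, Tnnt3, had 31910, 29484, 23604 and 28507 CPM in muscle, against 2.86, 1.31, 1.20 and 2.49 CPM in heart (13.81 on the log2 scale, SE 0.36, adjusted p = 1.36e-10 by edgeR). Cardiac troponin I, Tnni3, had 0, 0.124, 0.281 and 0.144 CPM in muscle, against 3862, 2790, 4063 and 3168 CPM in heart (−14.51 on the log2 scale, SE 0.32, adjusted p = 4.47e-11 by edgeR). Troponin genes lie in neighbouring couples, and the members of a couple need not go together. Tnni3 and Tnnt1, slow skeletal troponin T, are 1922 bases apart on chromosome 7 with no coding gene between them, and Tnnt1 was higher in muscle, at 50.02, 98.0, 211 and 112 CPM, against 13.3, 8.56, 14.0 and 11.8 CPM in heart (3.31 on the log2 scale, SE 0.38, adjusted p = 1.40e-05 by edgeR). Tnni1, slow skeletal troponin I and higher in muscle by 7.06 (SE 0.66), lies 25.4 kb from the lower Tnnt2, cardiac troponin T, at −10.78 (SE 0.30), on chromosome 1. Myh6 and Myh7 lie 3756 bases apart on chromosome 14 and also went opposite ways. By contrast Tnni2 and Tnnt3, 54.4 kb apart on chromosome 7, were both higher, as were the 6 genes of the fast and developmental myosin cluster in 293 kb of chromosome 11. Tropomyosin was shared: Tpm1 made up 73.9 ± 2.85% of the FPKM of the 3 muscle tropomyosins in muscle and 98.9 ± 0.304% in heart, with Tpm2 at 25.6 ± 2.58% in muscle and 0.316 ± 0.131% in heart.

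Of 9 genes on the list of light chains and their kinases, 4 were higher and 5 lower in muscle, and the list median was −4.57. Among these, the kinases Mylk2 and Mylk4 were higher and the kinase Mylk3 was lower. With the hearts of 181 and 146 alone, 5 of the 9 were higher and 4 lower, and the median was 2.49. Mylpf, the fast regulatory light chain, had 9912, 8914, 7720 and 9607 CPM in muscle and 0.770 to 1.58 CPM in heart. Myl2, the ventricular and slow regulatory light chain, had 87.3, 202, 254 and 173 CPM in muscle, against 7635, 6638, 9738 and 6728 CPM in heart (−5.42 on the log2 scale, SE 0.33, adjusted p = 8.32e-08 by edgeR). Myl4, the atrial and embryonic alkali chain, had 3.35, 6.33, 14.7 and 5.22 CPM in muscle, against 1.21, 405, 1.36 and 458 CPM in heart, so that it lay above the muscles in the hearts of 166 and 176 and below them in the others. The kinases of the regulatory chains were nearly exclusive: Mylk2, the skeletal one, had 878 to 1183 CPM in muscle and 0.109 to 0.634 CPM in heart, and Mylk3, the cardiac one, had 0.0958 to 0.337 CPM in muscle and 525 to 696 CPM in heart.

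Of 32 sarcomere scaffold genes tested, 22 were higher and 7 lower in muscle, with a list median of 1.17. Ttn, the spring titin used by both tissues, had 19028, 20675, 21119 and 26806 CPM in muscle, against 9077, 9040, 5854 and 8528 CPM in heart (1.43 on the log2 scale, SE 0.19, adjusted p = 4.83e-05 by edgeR). Des, the intermediate filament desmin, was also higher, at 3809 to 4018 CPM in muscle and 1196 to 1742 CPM in heart. Actn3, the fast-fibre alpha-actinin, had 8770 to 11561 CPM in muscle and 0.489 to 3.67 CPM in heart, whereas Actn2, the alpha-actinin of both tissues, was lower in muscle (−0.58 on the log2 scale, SE 0.13, adjusted p = 0.00192 by edgeR). Csrp3, the stretch sensor muscle LIM protein, was lower in muscle at 49.0, 90.9, 66.3 and 64.4 CPM, against 917, 683, 964 and 768 CPM in heart (−3.62 on the log2 scale, SE 0.19, adjusted p = 3.09e-08 by edgeR). Tmod1, the tropomodulin paired with skeletal Tmod4, did not pass the test over all 8 libraries (0.22, SE 0.11, edgeR adjusted p = 0.0819), but passed with animals paired on 6 libraries (adjusted p = 0.0250) and in those 6 unpaired (adjusted p = 0.0241).

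Calcium handling, which couples the action potential to contraction, also used separate family members. Of 33 such genes tested, 22 were higher and 10 lower in muscle, with a list median of 2.86. The calcium release channel was Ryr1 in muscle, with 7050, 6493, 6169 and 6967 CPM, against 1.1, 0.815, 0.707 and 0.333 CPM in heart (13.17 on the log2 scale, SE 0.27, adjusted p = 2.74e-11 by edgeR). It was Ryr2 in heart, with 0.193, 0.124, 0.0562 and 0.287 CPM in muscle, against 2208, 1973, 1750 and 2222 CPM in heart (−13.49 on the log2 scale, SE 0.24, adjusted p = 1.31e-11 by edgeR). The calcium pump was Atp2a1 in muscle, at 99.4 ± 0.330% of the FPKM of the pair with Atp2a2, and Atp2a2 in heart, where Atp2a1 took 0.0326 ± 0.0110%. The pump's inhibitor Pln, phospholamban, had 1.29, 1.36, 2.41 and 2.87 CPM in muscle, against 5952, 4526, 5551 and 5358 CPM in heart (−11.36 on the log2 scale, SE 0.28, adjusted p = 8.23e-11 by edgeR). Pvalb, the calcium buffer of fast fibres, had 10675, 9335, 8335 and 9644 CPM in muscle, against 0.934, 0.634, 0.163 and 1.54 CPM in heart. The voltage sensor Cacna1s was higher in muscle by 7.04 (SE 0.14), and the cardiac calcium channel Cacna1c was lower by a log2 fold change of −6.47 (SE 0.21). Junctophilins, which hold the surface membrane to the calcium store, broke the pattern, since both Jph1 (4.59, SE 0.13) and Jph2 (1.27, SE 0.09), the main cardiac one, were higher in muscle.

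By number of genes, ion channels leaned to the heart. Their summed TMM-scaled CPM did not, at 5404 to 6025 CPM in muscle and 4389 to 5207 CPM in heart. Of 35 channel, pump and connexin genes, 10 were higher and 23 lower in muscle, 20 of them at least 4-fold, with a list median of −2.73. Scn4a, the sodium channel of skeletal muscle, had 723, 726, 640 and 797 CPM in muscle, against 31.3, 29.9, 30.5 and 34.2 CPM in heart (4.52 on the log2 scale, SE 0.10, adjusted p = 4.68e-11 by edgeR). Clcn1, the chloride channel that keeps the fibre membrane stable, was higher by 4.73 (SE 0.18), and Kcnc4, a potassium channel, by 7.28 (SE 0.26). Kcnd2, a channel of the early repolarising current, had 2 counts over the 4 muscles, against 28.8 to 35.1 CPM in heart, and Gja3, a connexin, had 0 counts in muscle, against 14.7 to 18.0 CPM in heart. The tissues did not overlap for Scn4a, Kcnd2 or Gja3.

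Genes of the intercalated disc, which joins cardiomyocytes, were mostly lower in muscle, and genes of the neuromuscular junction mostly higher. Of 14 disc genes 11 were lower and 3 higher in muscle, with a list median of −2.17. The desmosomal cadherin Dsg2 had 1 count over the 4 muscles, against 110, 105, 91.0 and 129 CPM in heart, and the LIM protein Fhl2 had 0.901, 3.66, 4.38 and 1.96 CPM in muscle, against 1384, 819, 1190 and 1014 CPM in heart (−8.65 on the log2 scale, SE 0.38, adjusted p = 7.53e-09 by edgeR). The 3 higher genes were Cdh15, the cadherin of muscle precursor cells and fibres, Xirp2 and Nrap, the last 2 being actin-binding proteins that skeletal muscle holds at its tendon ends (Xirp2 2.66, SE 0.15; Nrap 1.53, SE 0.10). Of 20 junction and denervation genes tested, 13 were higher and 4 lower in muscle, with a list median of 1.15. Musk, the receptor kinase that organises the synapse, had 64.2, 57.9, 30.8 and 39.9 CPM in muscle, against 0.11, 0.589, 0.163 and 0.0831 CPM in heart (7.60 on the log2 scale, SE 0.41, adjusted p = 3.81e-08 by edgeR). Chrne, the adult epsilon subunit of the acetylcholine receptor, had 12.5, 15.3, 14.2 and 16.0 CPM in muscle and 2 counts over the 4 hearts. Agrn, which encodes agrin and is also made outside synapses, was lower in muscle at 9.98 to 17.7 CPM, against 52.5 to 81.0 CPM in heart (log2 fold change −2.05, SE 0.19).

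Of 20 adrenergic, muscarinic and cyclic AMP genes tested, 7 were higher and 13 lower in muscle. Adrb1, the main beta-adrenergic receptor of the heart, had 0, 0.248, 0.112 and 0.144 CPM in muscle, against 15.7, 14.2, 18.1 and 18.6 CPM in heart (−6.95 on the log2 scale, SE 0.31, adjusted p = 6.84e-09 by edgeR). The tissues did not overlap for this receptor. Chrm2, the vagal muscarinic receptor, had counts in a single muscle library, 0.248 CPM, against 30.4, 53.6, 31.0 and 67.8 CPM in heart, with the 2 higher hearts being those with atrial transcripts. Adenylyl cyclases, which make cyclic AMP, differed too, with Adcy2 at 68.3 to 95.5 CPM in muscle and 0.163 to 0.453 CPM in heart.

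Of 16 skeletal muscle regulators tested of 20 listed, 14 were higher in muscle, with a list median of 7.51 (6.88 with genes of few counts at their bound). On this list 5 genes had 0 counts in all hearts, among them Myf5, which was not tested. The list also holds Musk, the receptor kinase counted above. The 2 lower regulators were Msc and Tcf21, factors of head muscle precursors, and Msc did not pass with animals paired (adjusted p = 0.0683 by edgeR). Of 25 cardiac regulators tested of 27, 20 were lower and 4 higher in muscle, with a list median of −4.99, and 6 had 0 counts in all muscles. Members of both lists had to differ where they passed the low-count filter through 1 tissue alone, so these counts are a description. Tbx15, a T-box factor of fast fibres, had 479, 505, 377 and 498 CPM in muscle, against 0.659, 0.770, 0.598 and 0.914 CPM in heart (9.27 on the log2 scale, SE 0.17, adjusted p = 1.59e-11 by edgeR). Lbx1, a factor of limb muscle precursors, had 33.9, 35.8, 34.2 and 46.8 CPM in muscle and 0 counts in heart, at least 1055-fold higher. Gata4 had 0 counts in muscle, against 99.4, 104, 128 and 101 CPM in heart, at least 2521-fold lower, and Tbx20 was at least 2870-fold lower, with 111 to 137 CPM in heart. Nkx2-5 was at least 845-fold lower in muscle, with 31.3 to 40.7 CPM in heart. Myod1 itself, the founding member of its family, had 18.8, 22.02, 25.8 and 20.3 CPM in muscle and 1 count over the 4 hearts. The largest exception on the cardiac list was Mef2c, a factor that both lineages need, which was higher in muscle at 1195, 1212, 1078 and 1249 CPM, against 99.0, 75.8, 87.9 and 89.7 CPM in heart (3.75 on the log2 scale, SE 0.11, adjusted p = 2.84e-10 by edgeR). Ankrd1, a stretch-responsive cofactor of the heart, was lower in muscle at 9.24 to 20.2 CPM, against 903 to 1433 CPM in heart (log2 fold change −6.48, SE 0.27).

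**Figure D4:**
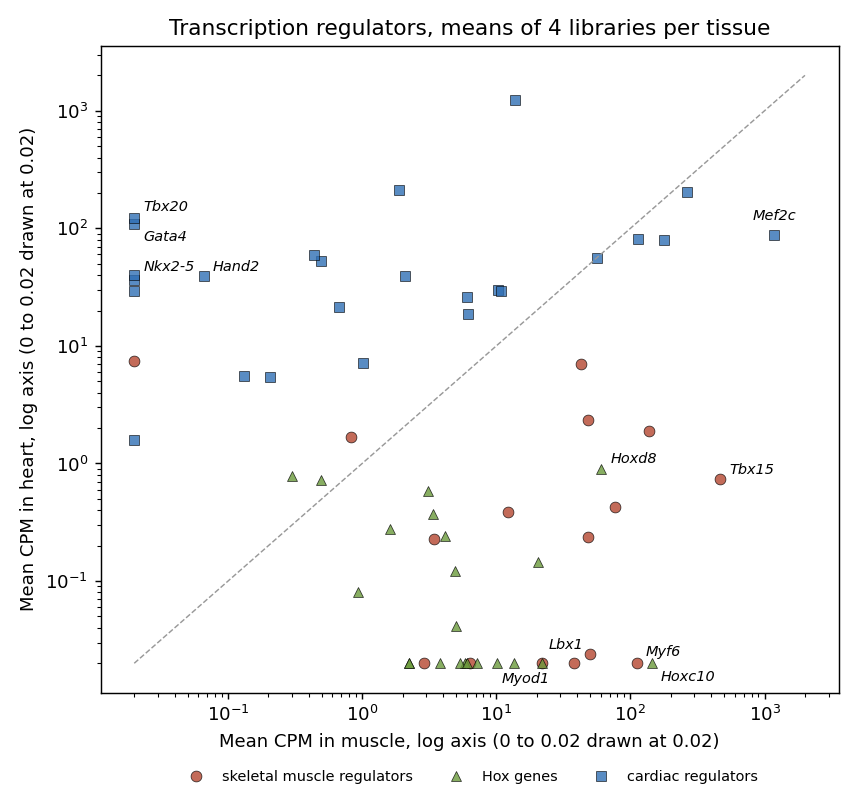
Mean CPM in muscle (horizontal, log axis) against mean CPM in heart (vertical, log axis) for the tested skeletal muscle regulators, Hox genes and cardiac regulators, each a mean of 4 libraries, with values up to 0.02 drawn at 0.02 and a dashed line of equal levels. Gata4, Tbx20 and Nkx2-5 lie at the left edge with no count in muscle, Myf6, Lbx1 and Hoxc10 at the lower edge, and Mef2c to the right of the line with the highest mean in muscle.

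Hox genes were found almost only in muscle, with a sum of 305 to 346 CPM in muscle and 3.70 to 7.20 CPM in heart. They are ordered along the chromosomes as they are used along the body, and genes at the end of a cluster mark the hind part and the limbs. Of 39 Hox genes 22 were tested, of which 20 were higher in muscle and 1, Hoxb2, was lower, and 9 of the tested genes had 0 counts in all 4 hearts. Since a gene passed the filter here mainly through muscle, these counts are a description. Hoxc10 was the most abundant of them in CPM, at 143, 155, 130 and 148 CPM in muscle, with 1 count over the 4 hearts, a ratio of 11919 (95% interval 2139 to 470830). Hoxd8 followed at 67.4, 59.6, 60.8 and 54.4 CPM in muscle, against 0.989, 0.951, 0.761 and 0.914 CPM in heart (6.05 on the log2 scale, SE 0.12, adjusted p = 2.43e-11 by edgeR). Hoxa10 had 19.3, 27.2, 17.5 and 23.3 CPM in muscle and 0 counts in heart, at least 603-fold higher. Hoxb2 averaged 0.300 CPM in muscle and 0.782 CPM in heart, and with animals paired it no longer passed the test (adjusted p = 0.0522 by edgeR). Among genes of limb position, Tbx4, a factor of the hindlimb, had 2.70, 3.29, 4.21 and 4.22 CPM in muscle and 0 counts in heart, and Tbx5, a factor of the forelimb and the heart, had 0 counts in muscle, against 29.6, 52.8, 25.8 and 53.0 CPM in heart. The labels do not name the muscle, and these are levels of genes and no assignment of it. Meis2, a Hox cofactor, was lower in muscle by a log2 fold change of −4.69 (SE 0.24), with 0.575 to 1.80 CPM in muscle and 26.3 to 37.1 CPM in heart.

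Most genes of glycogen and glycolysis were higher in muscle and most fatty acid genes were lower. Of 26 glycolysis and lactate genes tested, 18 were higher and 8 lower, with a list median of 1.94, and of 18 glycogen genes 14 were higher and 4 lower, with a median of 2.2. Of 36 fatty acid genes tested, 4 were higher and 29 lower, with a median of −1.35. Pfkfb3, which makes an activator of phosphofructokinase, had 550, 712, 340 and 628 CPM in muscle, against 12.6, 11.4, 8.48 and 11.1 CPM in heart (5.67 on the log2 scale, SE 0.24, adjusted p = 5.73e-09 by edgeR). Slc16a3, which exports lactate, had 320, 365, 221 and 341 CPM in muscle, against 1.1, 1.59, 0.870 and 0.623 CPM in heart (8.22 on the log2 scale, SE 0.26, adjusted p = 5.77e-10 by edgeR). Phka1, the muscle regulatory subunit of phosphorylase kinase, was higher by 5.05 (SE 0.18). The 8 lower glycolysis genes were largely other isoforms of the same steps, such as Hk1, a hexokinase, at 9.01, 10.7, 14.4 and 11.2 CPM in muscle, against 176, 179, 190 and 180 CPM in heart (−4.00 on the log2 scale, SE 0.13, adjusted p = 6.88e-10 by edgeR). Of lactate dehydrogenase, Ldha took 91.0 ± 2.02% of the pair's FPKM in muscle and 23.9 ± 0.792% in heart, the rest being Ldhb. Pygm, muscle glycogen phosphorylase, was the leading phosphorylase of both tissues, at 99.9 ± 0.00947% of the pair with Pygb in muscle and 65.4 ± 1.80% in heart.

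Lpl and Fabp3 were among the fatty acid genes that were lower in muscle in every library. Lpl, the lipase at the vessel wall, had 1225, 1113, 1156 and 980 CPM in muscle, against 7249, 4496, 6946 and 5552 CPM in heart (−2.44 on the log2 scale, SE 0.17, adjusted p = 2.49e-07 by edgeR). Fabp3, the fatty acid carrier of the cytosol, had 397, 363, 410 and 339 CPM in muscle, against 2262, 1593, 2435 and 1796 CPM in heart (−2.42 on the log2 scale, SE 0.15, adjusted p = 8.83e-08 by edgeR). The 4 higher genes included Acaca, whose product malonyl-CoA blocks fatty acid entry into mitochondria (0.86, SE 0.11), and Ucp3, a mitochondrial carrier (1.42, SE 0.35). Ketone and branched-chain amino acid genes were lower as well in 16 of 24 and higher in 1, Bckdk, the kinase that switches off branched-chain breakdown, at 177, 178, 169 and 178 CPM in muscle, against 70.9, 64.5, 74.9 and 72.9 CPM in heart (1.31 on the log2 scale, SE 0.07, adjusted p = 3.77e-08 by edgeR). Of 16 phosphagen and purine genes, 8 were higher and 7 lower, with a median of 0.38 that turns to −0.24 with library totals alone. Ckm, the muscle creatine kinase, had 20528 to 26419 CPM in muscle and 1154 to 1812 CPM in heart, while its mitochondrial partner Ckmt2 had 1436 to 1623 CPM in muscle and 1413 to 2240 CPM in heart, which overlap (−0.34 on the log2 scale, SE 0.14, adjusted p = 0.0495 by edgeR).

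**Figure D5:**
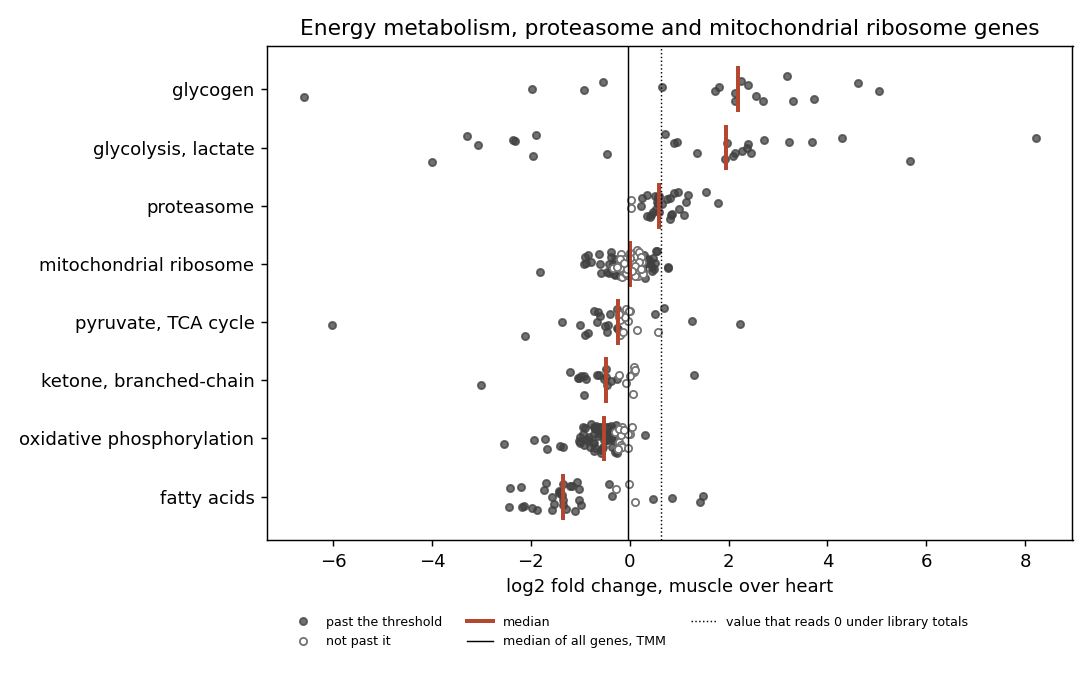
Log2 fold change, muscle over heart, of each tested gene of 8 lists (points, filled where past an adjusted p of 0.05), with the list median as a red bar, the median of all genes as a solid line and, dotted, the value that would read 0 under library totals. Glycogen and glycolysis medians lie at 2.2 and 1.94 and the fatty acid median at −1.35, while the proteasome median of 0.60 falls to −0.03 under library totals.

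Genes of the mitochondrial respiratory chain were mostly lower in muscle, by an amount that depends on the scaling. Of 75 nuclear-encoded genes of oxidative phosphorylation, 58 were lower and 1, Atp5g2, was higher by 0.30 (−0.32 under library totals), with a list median of −0.52. Upper-quartile scaling gave 70 lower, and library totals gave 75 lower with a median of −1.15. Of 76 mitochondrial ribosomal protein genes 18 were higher and 20 lower, with a median of −0.00. Under library totals 0 were higher and 66 lower, with a median of −0.63, and with the hearts of 181 and 146 alone 9 were higher and 34 lower. Isoforms of cytochrome c oxidase that heart and skeletal muscle share were among the lower genes. Cox7a1 had 140, 163, 148 and 123 CPM in muscle, against 407, 323, 460 and 330 CPM in heart (−1.41 on the log2 scale, SE 0.13, adjusted p = 2.85e-06 by edgeR), and Cox6a2 was lower by a log2 fold change of −0.59 (SE 0.12). Cox8b had 166 to 254 CPM in muscle and 214 to 301 CPM in heart and did not pass the test over all 8 libraries (−0.22, SE 0.15, edgeR adjusted p = 0.206), but passed with animals paired (−0.29, adjusted p = 0.00634). Atpif1, the inhibitor of ATP synthase, differed most, at 14.9, 14.3, 15.1 and 10.9 CPM in muscle, against 83.8, 68.4, 95.05 and 75.2 CPM in heart (−2.55 on the log2 scale, SE 0.13, adjusted p = 2.78e-08 by edgeR). Of 33 genes of pyruvate entry and the tricarboxylic acid cycle, 17 were lower and 4 higher, with a median of −0.23. Lower genes numbered 24 with upper-quartile scaling, 28 with library totals (median −0.86) and 23 with the hearts of 181 and 146 alone. Ogdhl, a relative of a cycle enzyme, had 1.74 to 2.63 CPM in muscle and 119 to 171 CPM in heart. Pcx, pyruvate carboxylase, went the other way, at 103 to 134 CPM in muscle and 22.3 to 29.0 CPM in heart (log2 fold change 2.24, SE 0.11). Ppargc1a, the coactivator PGC-1alpha, was lower in muscle, at 93.5, 69.3, 58.2 and 60.7 CPM, against 196, 111, 113 and 115 CPM in heart (−0.93 on the log2 scale, SE 0.21, adjusted p = 0.00192 by edgeR).

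Myoglobin and all endothelial markers tested were lower in muscle. Mb, which encodes the oxygen store myoglobin, had 2434, 3340, 3213 and 2546 CPM in muscle, against 10334, 7744, 11404 and 8727 CPM in heart (−1.73 on the log2 scale, SE 0.17, adjusted p = 4.36e-06 by edgeR). All 16 endothelial markers were lower in muscle, with a list median of −1.55, and in sum they came to 562 to 727 CPM in muscle and 1796 to 2236 CPM in heart. Of 12 smooth muscle and pericyte markers 6 were lower, 2 higher and 4 not called, with a median of −0.52. The 2 higher ones were Des, also counted with the sarcomere scaffold, and Abcc9, also counted with the ion channels. Kdr, the receptor for vascular endothelial growth factor, had 40.5, 51.7, 57.1 and 60.4 CPM in muscle, against 240, 222, 236 and 187 CPM in heart (−2.08 on the log2 scale, SE 0.13, adjusted p = 1.18e-07 by edgeR). Of 16 macrophage markers 15 were lower and 0 higher, or 11 lower with the hearts of 181 and 146 alone. Of 10 epicardial markers tested 8 were lower and 0 higher, with Wt1, Upk3b and Upk1b at 0 counts in all muscles. Among iron and oxygen genes higher in muscle was Hfe2, which encodes hemojuvelin, a regulator of iron balance, at 853 to 992 CPM in muscle and 199 to 266 CPM in heart (log2 fold change 1.99, SE 0.11).

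Most markers of tendon and some of the nerve sheath were higher in muscle. Of 11 tendon markers, 8 were higher in muscle and 0 lower, with a list median of 4.13. Tnmd, the tendon protein tenomodulin, had 4.57, 6.82, 19.7 and 4.65 CPM in muscle, against 0.0549, 0.0906, 0 and 0.0416 CPM in heart (7.35 on the log2 scale, SE 0.78, adjusted p = 7.68e-06 by edgeR), and the muscle of animal 156 was the highest. Of 9 Schwann cell markers tested 4 were higher and 0 lower, with a median of 0.40 that turns to −0.23 under library totals. Of 8 white fat markers tested 6 were higher and 2 lower. Adipoq, the adipocyte hormone adiponectin, had 11.01, 1.74, 7.64 and 10.9 CPM in muscle, against 0, 1.40, 0.0544 and 1.58 CPM in heart. Ucp1, which defines brown fat, had 0 counts in all 8 libraries. Extracellular matrix genes were split, with 11 of 39 higher and 13 lower and a median of 0.01, against 6 higher and 17 lower and a median of −0.60 under library totals. Col1a1, a chain of type I collagen, had 105, 230, 536 and 138 CPM in muscle, against 66.3, 142, 103 and 77.9 CPM in heart, and the tissues overlapped. The part that adjoining tendon, nerve and fat play in the muscle values was not tested.

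Secreted factors were mostly cardiac. Of 26 hormone and growth factor genes tested, 19 were lower and 6 higher in muscle, with a list median of −1.58. The natriuretic peptides Nppa and Nppb, which the heart releases to lower blood volume, had 0 counts in muscle. Nppb was at 139, 95.4, 310 and 102 CPM in heart, at least 3623-fold lower in muscle, and Corin, the protease that activates the atrial peptide, had 0.0620 to 0.449 CPM in muscle and 160 to 241 CPM in heart. For Nppa, which was highest in the hearts of 166 and 176, the difference was at least 20196-fold lower in muscle over all 4 hearts and at least 2390-fold lower against the hearts of 181 and 146 alone. On the muscle side stood Mstn, the growth inhibitor myostatin, with 169, 170, 96.8 and 150 CPM in muscle, against 0.165, 0.634, 0.0544 and 0.166 CPM in heart (9.07 on the log2 scale, SE 0.36, adjusted p = 3.26e-09 by edgeR). Ostn, the muscle peptide osteocrin, which competes for the clearance receptor of natriuretic peptides, had 49.7, 44.5, 22.8 and 26.4 CPM in muscle and 1 count over the 4 hearts.

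Counts of protein breakdown genes depended on the scaling. Of 26 atrophy-linked ubiquitin ligases and partners, 19 were higher and 3 lower in muscle, with a list median of 0.82, and under library totals 13 were higher and 7 lower, with a median of 0.20. Fbxo32, the ligase atrogin-1, had 1106, 778, 637 and 525 CPM in muscle, against 199, 173, 199 and 240 CPM in heart (1.91 on the log2 scale, SE 0.21, adjusted p = 9.73e-06 by edgeR). Trim63, the ligase MuRF1, was higher by 0.84 (SE 0.15), with 233 to 382 CPM in muscle and 141 to 194 CPM in heart. Klhl41, an adaptor that stabilises nebulin, had 926 to 1036 CPM in muscle and 77.0 to 86.7 CPM in heart, while Rnf207, a ligase of the heart, had 0.0644 to 0.186 CPM in muscle and 38.9 to 54.9 CPM in heart. Of 31 proteasome subunits 29 were higher and 0 lower, with a median of 0.60, but under library totals 10 were higher and 7 lower and the median was −0.03. Psmd8, a lid subunit, had 284, 281, 207 and 258 CPM in muscle, against 76.1, 66.7, 81.5 and 73.7 CPM in heart (1.79 on the log2 scale, SE 0.11, adjusted p = 1.09e-07 by edgeR). Of 50 cytosolic ribosomal protein genes 13 were higher and 6 lower, with a median of 0.03. Under library totals 2 were higher and 44 lower, with a median of −0.60, and with the hearts of 181 and 146 alone 7 were higher and 11 lower. Rpl3l, a copy of Rpl3 found in striated muscle, made up 91.8 ± 1.28% of the pair's FPKM in muscle and 60.3 ± 8.07% in heart (49.7 to 68.8%), and the close likeness of ribosomal genes to their copies makes their counts uncertain.

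Of 23 dystrophin complex genes tested 16 were higher and 6 lower, with a median of 0.47, against 8 higher and 10 lower and a median of −0.16 under library totals. Nos1, the nitric oxide synthase bound to dystrophin, had 197, 190, 146 and 217 CPM in muscle, against 0.824, 0.498, 0.435 and 0.540 CPM in heart (8.35 on the log2 scale, SE 0.20, adjusted p = 6.24e-11 by edgeR). Capn3, the muscle calpain, was higher by 6.04 (SE 0.12), and Utrn, the dystrophin relative utrophin, was lower by a log2 fold change of −1.35 (SE 0.13). Of 25 insulin and growth genes 14 were higher and 10 lower, with a median of 1.18. Prkag3, the AMP kinase gamma subunit of fast fibres, had 220, 237, 256 and 297 CPM in muscle, against 3.68, 1.99, 2.66 and 2.12 CPM in heart (6.61 on the log2 scale, SE 0.19, adjusted p = 2.64e-10 by edgeR). Akt1, a kinase of the insulin pathway, was lower at 71.7 to 74.2 CPM in muscle, against 161 to 198 CPM in heart (log2 fold change −1.24, SE 0.08).

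Of 20 clock genes 12 were higher and 1 lower in muscle, with a list median of 0.93, against 8 higher and 3 lower and a median of 0.30 under library totals. Rora, which activates the clock gene Arntl, had 340, 274, 221 and 275 CPM in muscle, against 50.9, 53.3, 41.7 and 53.2 CPM in heart (2.48 on the log2 scale, SE 0.14, adjusted p = 3.92e-08 by edgeR). Dbp, a factor whose level swings widely over the day, had 63.4, 78.4, 75.02 and 143 CPM in muscle, against 60.0, 44.3, 37.0 and 91.0 CPM in heart, and the tissues overlapped. Animal 176 had the highest Dbp in both tissues, and the same held for the clock gene Per2, at 34.0 CPM in muscle and 30.1 CPM in heart. Over all 8 libraries neither Dbp (edgeR adjusted p = 0.0807) nor Per2 (edgeR adjusted p = 0.422) passed the test. In TMM-scaled CPM muscle was above heart for both genes within each of the 3 animals with both tissues. With animals paired Dbp passed (0.61 on the log2 scale, adjusted p = 0.0108 by edgeR) while Per2 did not (0.50, adjusted p = 0.0843). The order within animals depends on the scaling, since the median of all genes moved from −0.03 to −0.66 with library totals alone. The hour of sampling is not given in the sources used here.

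Some abundant genes were at nearly the same level in both tissues. For 2442 genes (18.3%) the 95% interval of the log2 fold change lay within −0.5 to 0.5. Among the 12 most abundant of these were Slc25a4, Hsp90ab1, Hrc, Eif4g2, Cs, Sdha, Hspa8, Pdha1, Nexn and Mdh2, of which Hsp90ab1, Eif4g2 and Sdha passed the test with small fold changes. Slc25a4, which exchanges ADP for ATP across the inner mitochondrial membrane, had 3696, 4039, 3548 and 3871 CPM in muscle, against 4174, 3074, 4591 and 3650 CPM in heart (log2 fold change −0.03, 95% interval −0.33 to 0.27, edgeR adjusted p = 0.844). Cs, citrate synthase of the tricarboxylic acid cycle, had 1075, 1107, 1015 and 1120 CPM in muscle, against 1210, 1082, 1353 and 1266 CPM in heart (log2 fold change −0.19, 95% interval −0.39 to 0.02, edgeR adjusted p = 0.0985), and it passed in the 6 libraries of paired animals (adjusted p = 0.0353 paired and 0.0369 unpaired). Hrc, a calcium-binding protein of the store that both tissues use, had 1269 to 1407 CPM in muscle and 1001 to 1344 CPM in heart (log2 fold change 0.14, 95% interval −0.10 to 0.38), a sign that turns under library totals. Of the genes named, Slc25a4, Cs, Sdha, Pdha1 and Mdh2 act in mitochondria.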

How the data were processed

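Gene counts and log2 FPKM were deposited by the authors as 1 table per tissue. The tools named in the submitters' processing notes are STAR 2.5, Subread 1.5.1 with featureCounts, FastQC 0.11.5 and edgeR 3.12.1, and the build is mm10. Strand use in counting is not given in the sources used here. Deposited counts of the 14537 genes listed in both tables were joined by symbol and tested with edgeR 4.0.16 in R 4.3.3 (TMM scaling, filterByExpr with a minimum count of 10 and total of 15, quasi-likelihood F test of muscle over heart on the 8 libraries, Benjamini-Hochberg adjustment over 13328 genes). CPM are scaled by TMM, with factors from 0.778 to 0.839 for muscle and from 1.21 to 1.27 for heart. The deposited log2 FPKM were turned back to FPKM only to compare genes within a library, with genes of 0 counts set to 0. Alternatives used DESeq2 1.42.0, limma 3.58.1, other scalings and filters, and left out libraries.

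Genes were named by rule: all tested members of the pairs, myosin and Hox lists, the 12 highest and 12 lowest fold changes among called genes whose higher tissue averaged 20 CPM or more, up to 3 highest and 3 lowest called members per list with at least 5 CPM, the 12 most abundant genes with an interval within −0.5 to 0.5, and a short fixed list. The 12 highest and 12 lowest had also to show no overlap between the tissues, and gene-model symbols were left out of them. Members and lists were chosen with earlier results of these data known. Titles give 3 animals with both tissues. Over 7585 genes with a mean log2 CPM of at least 3, deviations from the tissue means correlated between the tissues of an animal at 0.19 (181), 0.40 (146) and 0.27 (176), and between different animals at −0.28 to 0.15. For each of the 3 muscles the same-animal value was the highest. Deviations sum to 0 over the libraries of a tissue, which lowers the values between animals, so the pairing rests on the titles. The fit without pairing keeps all 8 libraries. No 2 libraries were alike within sampling noise (smallest chi-square per gene 14.8). P-values measure the spread between these animals. Some genes that the rule names are not reported here.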

Additional observations from a re-analysis of the deposited data

Results flagged for a closer look

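In 20 of 304 sets of 4 libraries looked at, 1 library stood far from the other 3 (gap over range above Dixon's critical value for 4 samples), a mark that chance alone gives to about 1 in 20 sets. The muscle of animal 156 was the high one for Myh8 (19.6 CPM), Tnmd (19.7 CPM) and Tnnt2 (6.85 CPM), and the low one for Jph1 (550 CPM), Ldha (2960 CPM) and Pygm (8976 CPM). Other muscles stood apart for Des (4018 CPM in animal 146), Lbx1 (46.8 CPM in 176), Nrap (2229 CPM in 176) and Myh1 (4356 CPM in 181, the low one). The heart of animal 166 was high for Msc (2.67 CPM), Musk (0.589 CPM) and Myh7 (70.1 CPM) and low for Pdha1 (1009 CPM) and Tmod1 (358 CPM). The heart of animal 146 was high for Akt1 (198 CPM) and Gata4 (128 CPM) and low for Ttn (5854 CPM). Mylk3 was high in the heart of animal 176 (696 CPM), and Ppargc1a in that of animal 181 (196 CPM).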

How the results depend on the processing

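Library totals alone gave 2022 genes higher and 8603 lower in muscle, with 1954 at least 4-fold lower. A test against a minimum fold (glmTreat, log2 fold of 1) gave 1369 higher and 1864 lower, and a minimum of 10 CPM in a tissue, with fewer genes tested, gave 419 at least 4-fold higher and 515 lower. Under library totals the log2 fold change turned to −0.32 for Atp5g2, −0.40 for Eif4g2, −0.48 for Hrc, −0.35 for Hsp90ab1, −0.54 for Hspa8 and −0.40 for Tmod1. With the hearts of 181 and 146 alone, an alternative chosen after seeing the data, it turned to 2.94 for Dkk3, 2.49 for Myl4 and 4.78 for Sln. Leaving out 1 library at a time gave 4354 to 4640 higher and 4595 to 4914 lower genes. With animals as a replicate block, on the 6 paired libraries, 4697 genes were higher and 4783 lower, against 4549 and 4680 in the same libraries without the block. Of the genes named, the block brought Cox8b, Cs, Dbp, Mdh2 and Tmod1 past the threshold and took Hoxb2, Msc and Myl4 (adjusted p = 0.260 by edgeR) off it, of which Cs, Mdh2 and Tmod1 also passed in the 6 libraries without it. With 4 libraries a tissue and separate tables per tissue, small differences between the tissues remain the least certain.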
